A study of Mus musculus with 2 samples.

Results

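Triglyceride synthesis genes were compared between subcutaneous (inguinal) white fat of vehicle-treated and entacapone-treated obese mice. The genes were the 10 named ones that encode the acyltransferases and the lipin of glycerolipid assembly: Gpam, Gpat3, Gpat4, Agpat1, Agpat2, Agpat3, Lpin1, Dgat1, Dgat2 and Mogat1. They were chosen by symbol, but with earlier results of these data known. All 10 were found among the 37315 genes of the count tables. Both libraries came from white adipose tissue of male C57BL/6 mice aged 23 weeks with obesity induced by a high-fat diet; 1 group had received vehicle and the other entacapone, a Parkinson disease drug that blocks catechol-O-methyltransferase and has also been described as inhibiting FTO, an RNA demethylase. Each group held 1 library of poly(A)-selected RNA, with 13620056 counted reads for vehicle and 12979673 for entacapone. The sources used here give neither the dose and duration nor how many mice each library came from.

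Fat cells store fatty acids as triglyceride by adding acyl chains to a glycerol backbone in the endoplasmic reticulum. Glycerol-3-phosphate acyltransferases (GPAT) add the first chain, acylglycerolphosphate acyltransferases (AGPAT) add the next and give phosphatidic acid, and lipins remove its phosphate to give diacylglycerol. Diacylglycerol acyltransferases (DGAT) add the last chain, and monoacylglycerol acyltransferases (MGAT) reach diacylglycerol by a side route from monoacylglycerol. Every step has several isoenzymes, some of them unrelated in sequence, so the make-up of each step was compared as well as the level of each gene.

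Since each group held 1 library, replicate error could not be measured, and no p-value is given. Each difference is one between these libraries and not between the treatments. Intervals are exact 95% counting intervals, which cover counting error only and no variation between mice or libraries. The reads carry no molecular identifiers, so copies of the same molecule count as separate reads, and the intervals may be too narrow even for counting error. Levels are counts scaled to library size (CPM), and levels of different genes are compared after division by the length of their merged exons in kilobases (RPKM). A gene was called higher or lower where its ratio of entacapone over vehicle reached 1.5-fold and the interval excluded 1. All 10 genes passed the filter of a mean of at least 1 CPM, with at least 190 reads in each library.

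In the entacapone library, Agpat2, Dgat2 and Gpat3 were lower and Gpat4 was higher by this rule. Thus 3 of 10 were called lower, where 7.90% of the 13361 genes measured were called lower, and 1 of 10 was called higher, against 4.16%. At any size, 4 of the 10 were lower and 5 higher beyond counting error, against 21.1% and 20.2% of all genes. Intervals narrow with depth, and these genes are abundant, so neither pair of shares is matched to their level. All 10 had a mean of at least 5 CPM. Of the 10762 genes at or above that limit, 5.97% were called lower and 3.11% higher. The median log2 ratio of the 10 genes was 0.13, against 0.00 over all genes measured. The summed level of the 10 was 4103 CPM for vehicle and 3093 CPM for entacapone, a log2 ratio of -0.41, and Dgat2 alone held 2258 and 1313 CPM of these sums.

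**Figure D1:**
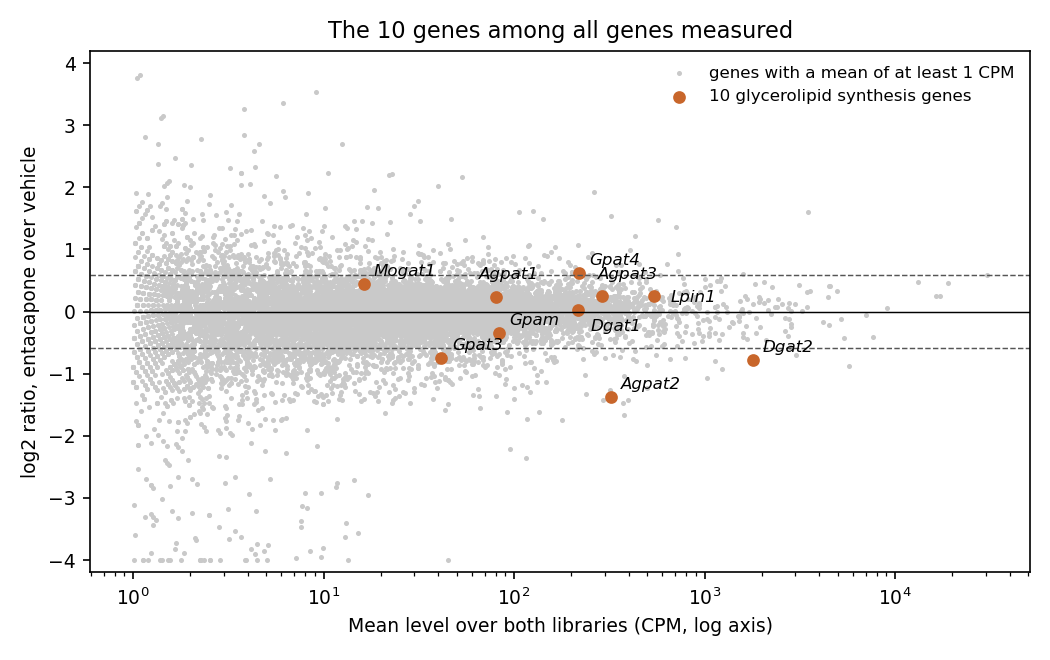
Each grey point is 1 of the 13361 genes measured, by mean level over both libraries (CPM, log axis) and log2 ratio of entacapone over vehicle; ratios beyond 4 in either direction are drawn at 4, and dashed lines mark 1.5-fold. The 10 glycerolipid genes (orange) run from Agpat2 at -1.37 to Gpat4 at 0.62.

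Markers of other cell types and tissues differed between the libraries, so their levels are given once here. The 8 adipocyte markers, none at 0, summed to 40958 CPM for vehicle and 41952 CPM for entacapone (log2 0.03), with none called in either direction. At any size 4 were higher and 4 lower beyond counting error, against 20.2% and 21.1% of all genes. They ran from Lep at a log2 ratio of -0.42 to Retn at 0.54. Fabp4 alone held 15029 and 17900 CPM, so the sum leans on that gene. The 8 macrophage markers were all called lower (1133 against 529 CPM summed), as were all 8 hepatocyte markers (346 against 87.7 CPM). Of 8 fibroblast and progenitor markers 4 were called lower (6145 against 4048 CPM). Of 8 skeletal muscle markers 5 were called higher (1203 against 1836 CPM), and of 8 epithelial and sebaceous markers 6 were called higher (32.9 against 124 CPM). Of 5 measured red cell markers 4 were called higher (283 against 467 CPM summed over the list), and of 5 measured brown and beige adipocyte markers 2 were called higher and 2 lower (65.6 against 89.5 CPM). Endothelial markers summed to 1108 and 1106 CPM. The part of these cell types in the values below was not tested, and in bulk tissue fewer cells of a type and less RNA per cell cannot be told apart.

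The upstream sequences of 3 genes are shown to compare a gene that was lower by far (Agpat2), one lower by less (Gpam) and one higher (Lpin1). Gpam and Lpin1 differed beyond counting error but were not called. They are the 250 bases before the transcription start from RefSeq (GRCm38.p6), 5′ to 3′ on the gene's strand, and none overlaps an annotated exon. RefSeq lists a second Gpam start, whose window overlaps annotated exons and is not shown; it held 1 GC box and no CCAAT box. Capitals mark matches, on either strand, to the motifs searched for: the CCAAT box (CCAAT), the GC box (GGGCGG), the E-box (CACGTG), an SREBP element (TCACNCCAC) and a C/EBP site (TTGCNNAA).
Agpat2, chr2:26604418-26604667, minus strand: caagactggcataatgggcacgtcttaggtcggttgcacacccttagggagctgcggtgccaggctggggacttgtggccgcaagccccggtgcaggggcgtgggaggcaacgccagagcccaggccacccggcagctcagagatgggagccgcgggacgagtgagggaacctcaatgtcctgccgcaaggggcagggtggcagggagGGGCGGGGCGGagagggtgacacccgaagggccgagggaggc
Gpam, chr19:55127239-55127488, minus strand: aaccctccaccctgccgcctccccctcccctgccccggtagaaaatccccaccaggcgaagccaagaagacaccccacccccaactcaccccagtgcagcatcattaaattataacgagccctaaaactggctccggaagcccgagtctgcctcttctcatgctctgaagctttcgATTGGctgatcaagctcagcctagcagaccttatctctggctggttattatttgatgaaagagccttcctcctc
Lpin1, chr12:16610967-16611216, minus strand: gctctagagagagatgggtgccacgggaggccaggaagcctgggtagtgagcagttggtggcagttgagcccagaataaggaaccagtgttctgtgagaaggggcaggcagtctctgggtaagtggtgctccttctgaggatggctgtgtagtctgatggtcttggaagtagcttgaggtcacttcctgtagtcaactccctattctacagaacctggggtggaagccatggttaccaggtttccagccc
The Agpat2 window held 2 GC boxes that share 1 base, the Gpam window shown held 1 CCAAT box, and the Lpin1 window held none of the 5 motifs. Of the 32851 RefSeq promoters of this length, 32.7% held a GC box and 33.8% a CCAAT box, so these matches are common letters and describe the windows only. An SREBP element was present in 1.05% of promoters, and a C/EBP site in 9.56%. Promoters were available for 7 of the 10 genes (Gpam, Gpat3, Agpat1, Agpat2, Agpat3, Lpin1 and Mogat1). Of the genes not shown, Gpat3, called lower, had 3 GC boxes. Agpat1, slightly higher and not called, had 2 windows, each with a GC box and 1 with a CCAAT box. Agpat3, also slightly higher and not called, had a C/EBP site, and Mogat1 had none of the 5 motifs. The windows of Gpat3, Agpat3 and Mogat1 overlap annotated exons.

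The GPAT step showed a change of make-up with a slightly higher total per kilobase. Gpat4, which encodes the endoplasmic reticulum GPAT4 (ENSMUSG00000031545, chromosome 8, 23171265 to 23208346, minus strand), stood at 173 CPM for vehicle (2386 reads) and 265 CPM for entacapone (3388 reads). It was 1.53-fold higher with entacapone, a log2 ratio of 0.62 (0.54 to 0.69), and 95.2% of all genes measured had a lower ratio. This value lies close to the limit of 1.5-fold, and scaling by total counts put it at 0.58, just short of the call.

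Gpat3, the other GPAT of the endoplasmic reticulum and one induced as fat cells differentiate, went the other way (ENSMUSG00000029314, chromosome 5, 100845713 to 100899102, plus strand). It stood at 52.1 CPM for vehicle (720 reads) and 30.9 CPM for entacapone (396 reads), 1.68-fold lower, with a log2 ratio of -0.75 (-0.93 to -0.57). Exons of the antisense gene 4930458D05Rik cover 30.04% of its exon bases. Strand is not kept by the library kit, so reads of the 2 genes cannot be told apart there. The antisense gene itself had 31 and 22 reads, but reads that match both genes may have been counted for neither. In that case the level and share of Gpat3 per kilobase would be too low in both libraries. Gpam, which encodes the mitochondrial GPAT1 (ENSMUSG00000024978, chromosome 19, 55067268 to 55127238, minus strand), was at 93.3 against 73.4 CPM. Its log2 ratio was -0.35 (-0.47 to -0.22), lower beyond counting error but not called.

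Per kilobase, the step's summed level was 54.7 RPKM for vehicle and 59.5 RPKM for entacapone, a log2 ratio of 0.12 (0.06 to 0.18). Gpat4 made up 47.2% of that sum in the vehicle library (45.7% to 48.7%) and 66.6% in the entacapone library (65.2% to 68.1%). Gpat3 went from 27.2% to 14.9% and Gpam from 25.6% to 18.5%. Ratios of genes within a library do not depend on library size. The Gpat3 to Gpat4 ratio per kilobase was 0.576 in the vehicle and 0.223 in the entacapone library, a 2.58-fold difference (2.26 to 2.96). The Gpam to Gpat4 ratio differed 1.95-fold (1.76 to 2.16), from 0.542 to 0.278. Gpam and Gpat3 were lower by different amounts, their ratio to each other being 1.32-fold higher with entacapone (1.14 to 1.54). The remaining isoenzyme, Gpat2, which is known mainly from testis, had 1 vehicle and 8 entacapone reads and was below the filter.

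**Figure D2:**
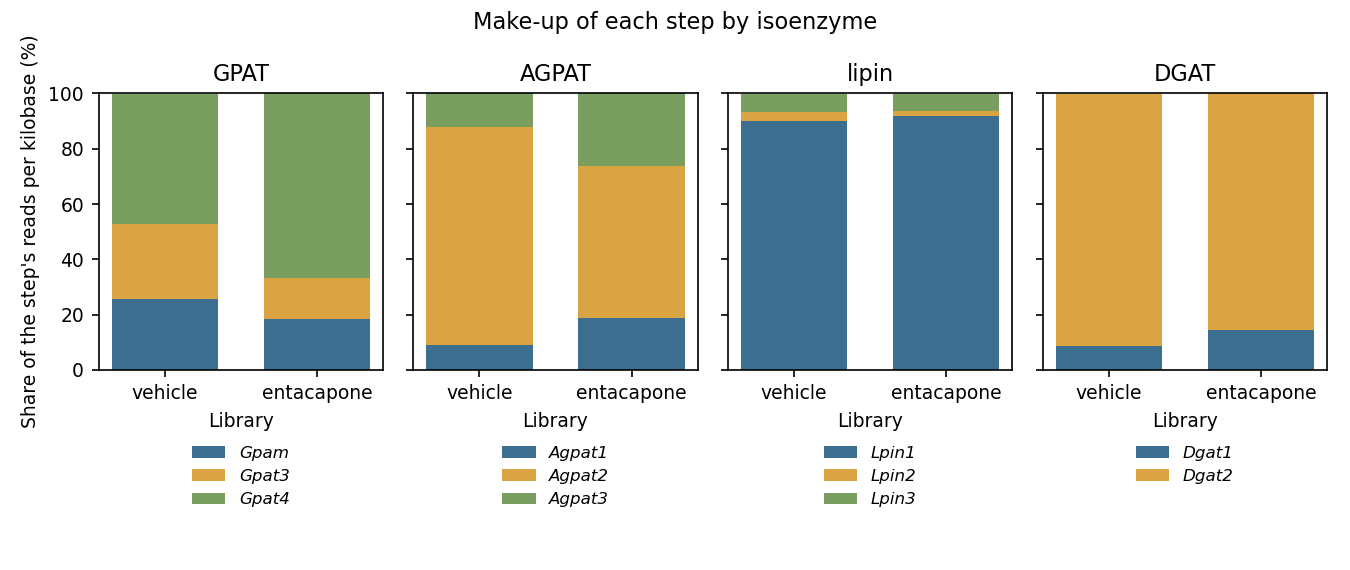
Stacked bars give each isoenzyme's share (percent) of its step's reads per kilobase in the vehicle and entacapone libraries (1 each); the lipin panel includes Lpin2 and Lpin3. Gpat4 takes 47.2% and 66.6% of the GPAT bars, Agpat2 78.8% and 54.8% of the AGPAT bars, and Dgat2 91.3% and 85.7% of the DGAT bars.

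At the AGPAT step a single isoenzyme was much lower. Agpat2, the main AGPAT of fat, whose loss causes generalized lipodystrophy (ENSMUSG00000026922, chromosome 2, 26593057 to 26604417, minus strand), had 6421 reads (465 CPM) in the vehicle library and 2295 reads (179 CPM) in the entacapone library. It was 2.59-fold lower, with a log2 ratio of -1.37 (-1.44 to -1.31). Of the 10 genes, Agpat2 alone differed by at least 2-fold, a size that 3.50% of all genes measured reached in the same direction and 1.66% in the other. Only 1.71% of all genes measured had a lower ratio. The 3′ end of Agpat2 shares 64 exon bases, 3.0% of its exons, with Egfl7 on the opposite strand; Egfl7 stood at 89.7 and 89.5 CPM.

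Agpat1 and Agpat3 were slightly higher and not called. Agpat1, expressed in most tissues (ENSMUSG00000034254, chromosome 17, 34604262 to 34613449, plus strand), was at 73.8 against 86.7 CPM, a log2 ratio of 0.23 (0.11 to 0.35). Agpat3, an enzyme known to favour polyunsaturated acyl chains (ENSMUSG00000001211, chromosome 10, 78269178 to 78352489, minus strand), was at 265 against 315 CPM, a log2 ratio of 0.25 (0.19 to 0.32). The ratio of Agpat1 to Agpat3 was 0.724 and 0.713 per kilobase, with a factor between the libraries of 0.985 (0.894 to 1.09), so a difference larger than that range was not seen.

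Agpat2 was therefore also lower relative to the rest of its step. The Agpat2 to Agpat3 ratio per kilobase was 6.42 for vehicle and 2.08 for entacapone, a 3.09-fold difference (2.89 to 3.30), and the Agpat1 to Agpat2 ratio differed 3.04-fold (2.76 to 3.36). The share of Agpat2 in the step was 78.8% (78.2% to 79.5%) in the vehicle and 54.8% (53.6% to 56.1%) in the entacapone library. Agpat3 went from 12.3% to 26.4% and Agpat1 from 8.89% to 18.8%. The step's summed level was 277 RPKM for vehicle and 154 RPKM for entacapone, 1.80-fold lower (log2 -0.85, -0.90 to -0.80).

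Of other enzymes that can acylate lysophospholipids, the 3 compared here were minor in both libraries, and none of these was called. Agpat4 was at 8.25 against 7.97 CPM, Agpat5, a mitochondrial AGPAT, at 26.7 against 31.9 CPM, and Lclat1, which also remodels cardiolipin, at 28.0 against 29.7 CPM. With these 3 included, Agpat2 still held 75.8% and 50.9% of the step.

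The lipin step was slightly higher as a whole. Lpin1, which encodes the main phosphatidic acid phosphatase of fat and also acts as a transcriptional coactivator (ENSMUSG00000020593, chromosome 12, 16535669 to 16610966, minus strand), had 6854 reads (496 CPM) for vehicle and 7596 reads (594 CPM) for entacapone. Its log2 ratio was 0.26 (0.21 to 0.31), above counting error but under 1.5-fold. Lpin1 is also abundant in skeletal muscle, and the summed muscle markers were higher with entacapone by a log2 ratio of 0.61. Among its relatives, Lpin2, a lipin prominent in liver, was called lower at 21.6 against 14.1 CPM (log2 -0.62, -0.90 to -0.35), and Lpin3 was at 14.3 against 15.6 CPM, within counting error. The summed hepatocyte markers were lower in that library by a log2 ratio of -1.98. Per kilobase Lpin1 held 90.1% of the lipin sum for vehicle and 91.9% for entacapone, and the Lpin1 to Lpin2 ratio was 1.84-fold higher with entacapone (1.52 to 2.23).

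The DGAT step combined a lower Dgat2 with a level Dgat1. DGAT1 and DGAT2 belong to unrelated protein families; DGAT2 works at the endoplasmic reticulum and on lipid droplets, and DGAT1 in the endoplasmic reticulum. Dgat2 (ENSMUSG00000030747, chromosome 7, 99153658 to 99182719, minus strand) had 31188 reads (2258 CPM) for vehicle and 16807 reads (1313 CPM) for entacapone. It was 1.72-fold lower, a log2 ratio of -0.78 (-0.81 to -0.75), with 6.02% of all genes measured having a lower ratio. Dgat1 (ENSMUSG00000022555, chromosome 15, 76502015 to 76511953, minus strand) was at 214 against 217 CPM, a log2 ratio of 0.02 (-0.05 to 0.10), the only 1 of the 10 within counting error.

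Dgat2 remained the main DGAT transcript in both libraries. It held 91.3% of the step per kilobase for vehicle (91.0% to 91.6%) and 85.7% for entacapone (85.2% to 86.2%). The Dgat1 to Dgat2 ratio per kilobase was 0.0956 and 0.167, a 1.75-fold difference (1.65 to 1.85). The step's summed level was 802 RPKM for vehicle and 497 RPKM for entacapone, 1.61-fold lower (log2 -0.69, -0.72 to -0.67).

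Mogat1, which encodes an MGAT found in fat and in fatty liver (ENSMUSG00000012187, chromosome 1, 78510991 to 78538173, plus strand), was the least abundant of the 10 by CPM. It had 190 reads (13.8 CPM) for vehicle and 239 reads (18.7 CPM) for entacapone, a log2 ratio of 0.44 (0.16 to 0.72), higher beyond counting error and not called. BC035947 on the opposite strand shares 12.8% of its exon bases and had 26 and 32 reads. Mogat2, the intestinal MGAT, was at 10.6 against 8.99 CPM (log2 -0.24, -0.61 to 0.12). The Mogat1 to Mogat2 ratio was 1.61-fold higher with entacapone (1.17 to 2.22).

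**Figure D3:**
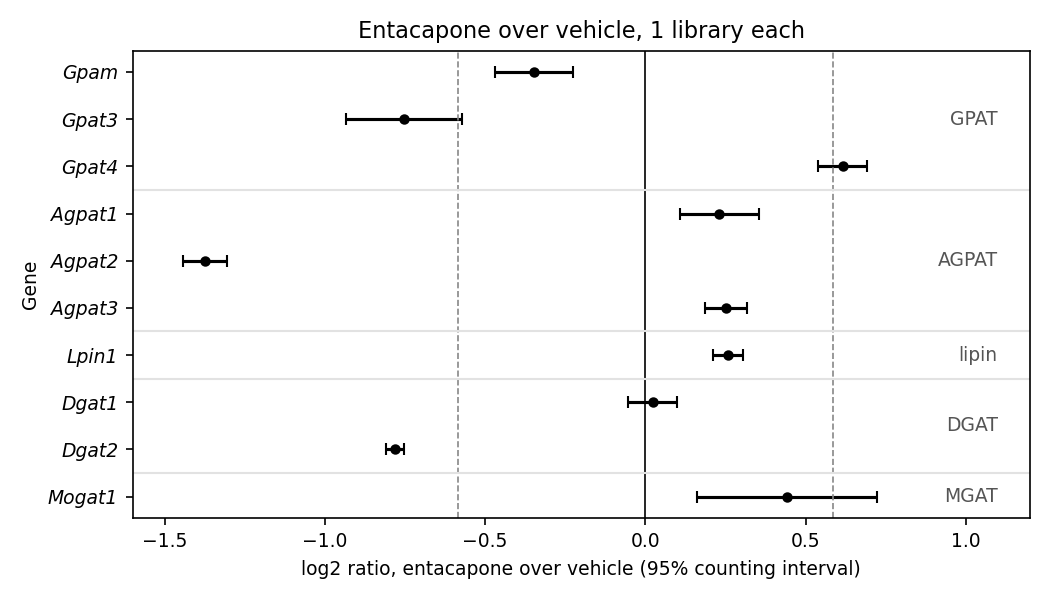
Points give the log2 ratio of entacapone over vehicle (1 library each) for the 10 genes by step, bars the exact 95% counting interval, and dashed lines 1.5-fold. Agpat2 (-1.37), Dgat2 (-0.78) and Gpat3 (-0.75) lie left of the lower line, Gpat4 (0.62) lies just right of the upper one, and its interval crosses that line, as does that of Gpat3 on the other side.

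The order of the levels per kilobase was led by Dgat2 in both libraries, at 732 RPKM for vehicle and 426 RPKM for entacapone. Of all genes measured, 98.9% and 98.5% were below it per kilobase. Agpat2 came next at 218 and 84.2 RPKM, and its lead over Dgat1 narrowed from 3.12-fold (2.98 to 3.26) to 1.18-fold (1.12 to 1.25). Dgat1 (70.0 and 71.1 RPKM), Lpin1 (51.3 and 61.4 RPKM) and Agpat3 (34.0 and 40.5 RPKM) followed in that order in both. Below them the order differed between the libraries.

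In the vehicle library Gpat4 (25.9 RPKM) and Agpat1 (24.6 RPKM) did not differ beyond counting error, with a ratio of 1.05 (0.976 to 1.13), nor did Gpat3 (14.9 RPKM) and Gpam (14.0 RPKM), with a ratio of 1.06 (0.969 to 1.17). In the entacapone library Gpat4 (39.6 RPKM) was level with Agpat3 (ratio 1.02, 0.976 to 1.07) and 1.37-fold above Agpat1 (28.9 RPKM). There Mogat1 (12.0 RPKM) and Gpam (11.0 RPKM) did not differ beyond counting error (ratio 1.09, 0.941 to 1.26). Gpat3 was lowest at 8.84 RPKM, where its length includes the exon bases shared with its antisense gene. In the vehicle library Mogat1 had been lowest, at 8.83 RPKM. With the longest transcript in place of merged exons, Agpat2 and Dgat1 were level in the entacapone library (ratio 1.05, 0.990 to 1.11).

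**Figure D4:**
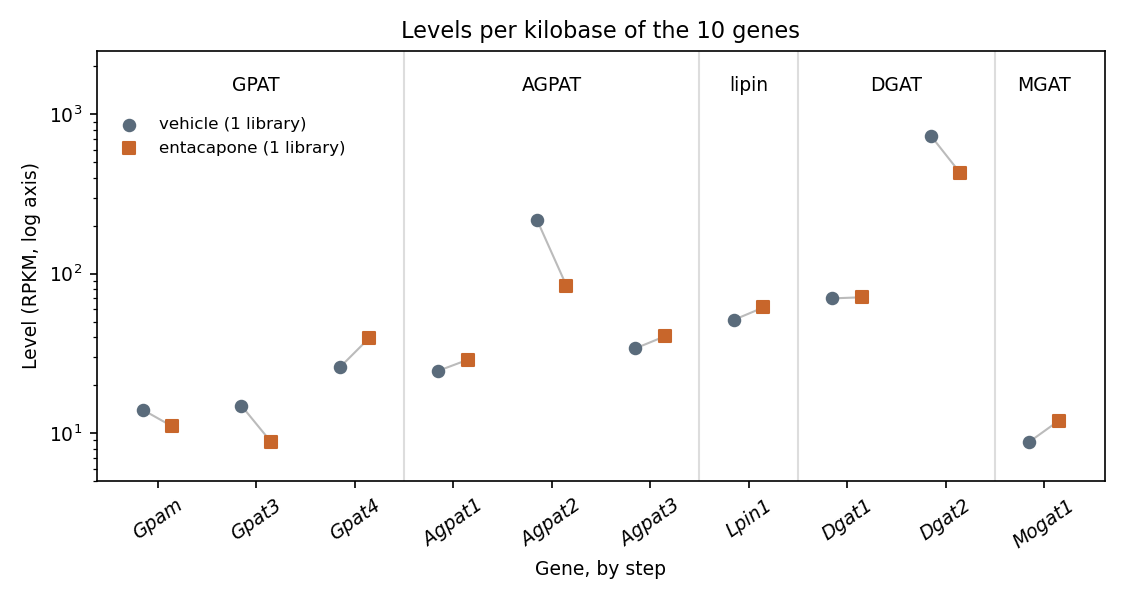
Paired points give the level of each gene (RPKM, log axis) in the vehicle (circle) and entacapone (square) library, 1 each, by step. Dgat2 is highest in both (732 and 426 RPKM), Agpat2 goes from 218 to 84.2 RPKM, and Gpat3 and Gpat4 move apart from 14.9 and 25.9 to 8.84 and 39.6 RPKM.

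Genes around the pathway were described by lists fixed with earlier results of these data known. Of 11 measured other enzymes of glycerolipid assembly, 1 was called higher and 1 lower, beside 4.16% and 7.90% of all genes, with a median log2 ratio of 0.07. Counts this small do not set the list apart from all genes. The higher one was Awat2, a wax synthase of sebaceous glands from the DGAT2 family, at 7.82 against 36.1 CPM; Awat2 is itself one of the epithelial and sebaceous markers, which were higher in the same library. The lower one was Lpin2, described above. The most abundant, Plpp3, a phosphatase of phosphatidic and lysophosphatidic acid at the cell surface, was at 300.1 against 215 CPM (log2 -0.48, -0.55 to -0.41).

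The substrate supply list covered fatty acid uptake and activation and the making of glycerol-3-phosphate. Of its 13 measured genes, 0 were called higher and 2 lower, beside 4.16% and 7.90% of all genes, with a median log2 ratio of -0.04. At any size 5 were lower and 1 higher beyond counting error, beside 21.1% and 20.2% of all genes. Acsl3, a long-chain acyl-CoA synthetase of droplets, was at 14.7 against 8.20 CPM (log2 -0.84, -1.19 to -0.49). Gk, glycerol kinase, was at 15.8 against 10.3 CPM (log2 -0.61, -0.94 to -0.30). The fatty acid transporter Cd36 was the most abundant, at 1351 against 1157 RPKM. Acsl1, the main acyl-CoA synthetase of fat, at a log2 ratio of -0.44 (-0.47 to -0.42), and Gpd1, which makes glycerol-3-phosphate, at -0.35 (-0.38 to -0.31), were chosen after their values were seen. So were Slc27a1, a fatty acid transporter and the 1 gene of the list that was higher beyond counting error, at 0.33 (0.30 to 0.36), and Pck1, an enzyme of glyceroneogenesis, at -0.01 (-0.04 to 0.02).

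The regulators and droplet assembly list held Insig1, the lowest gene of the 5 lists among those that passed the filter of 1 CPM. Of 15 measured, 3 were called lower and 1 higher, against 7.90% and 4.16% of all genes, and 8 were lower and 4 higher at any size, against 21.1% and 20.2% of all genes (median log2 ratio -0.21). Insig1, a sterol-responsive protein that holds SREBP in the endoplasmic reticulum, was at 550 against 197 CPM (log2 -1.48, -1.54 to -1.41). Srebf1, which encodes the SREBP of lipid synthesis, was at 448 against 271 CPM (log2 -0.72, -0.78 to -0.66). Ppara, a fatty acid receptor most abundant in liver, was at 8.04 against 5.08 CPM (log2 -0.66, -1.13 to -0.21). The 1 higher gene was Ppargc1a, a coactivator known to induce Lpin1, on 29 and 48 reads (log2 0.84, 0.14 to 1.55). The most abundant gene of the list, Cebpa, was at 453 against 346 RPKM (log2 -0.39, -0.42 to -0.35). Pparg, the main transcription factor of fat cells and one chosen after its value was seen, was at 162 against 130 CPM (log2 -0.32, -0.41 to -0.23).

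**Figure D5:**
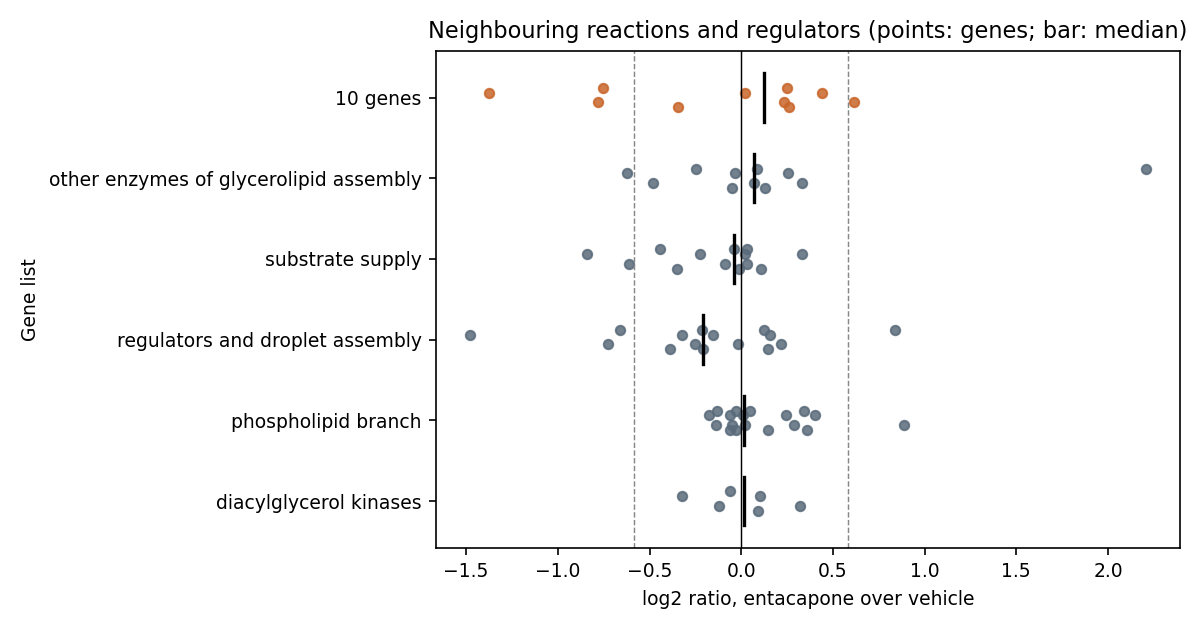
Each point is a gene measured, by log2 ratio of entacapone over vehicle (1 library each), in the set of 10 and in 5 lists of neighbouring reactions and regulators; black bars are medians and dashed lines 1.5-fold. The median is 0.13 for the 10 genes and -0.21 for regulators and droplet assembly, with Insig1 at -1.48 the lowest point drawn and Awat2 at 2.21 the highest.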

How the data were processed

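RNA of the 2 libraries was extracted with TRIzol, poly(A)-selected and prepared with the TruSeq RNA v2 kit, per the labels' protocols. Values in the deposited files are unnormalized read counts of Ensembl genes. The submitters' processing notes name TopHat2 2.1.1, HTSeq 0.6.0 and mm10; the sources used here give no annotation release, strand setting or handling of reads with several matches. Of 37315 genes, 35533 were matched by identifier to GENCODE M21 (GRCm38, the assembly of mm10), which gave symbols, positions and exon lengths; 1 listed symbol (Ldaf1) matched no gene.

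CPM used effective library sizes from edgeR 4.0.16 (TMM factors 1.01 and 0.986). Ratio intervals came from the Clopper-Pearson interval (SciPy 1.17.1) of the share of each gene's reads that lay in the entacapone library, pair intervals from the exact conditional odds ratio, and intervals of shares and step sums from the delta method for Poisson counts. For the ratio, a count of 0 in 1 library took a floor of 3 counts (0.217 CPM for vehicle and 0.234 for entacapone). None of the 10 genes needed it, their lowest count being 190 reads, but the lowest count among all genes measured was 0. Interval coverage and calls were tested on counts simulated with the Poisson error that the intervals assume. That test held no variation between mice and no copied reads, so it could not show how the intervals fare with these. Alternatives were upper-quartile factors, DESeq2 1.42.0 size factors, total counts, library sizes without marker and mitochondrial genes, other limits, and other gene lengths.

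The members and lists were chosen with earlier results of these data known. Named beside the 10 genes were the called genes of each list, its most abundant gene per kilobase and the isoenzymes of each step; Acsl1, Gpd1, Slc27a1, Pck1, Pparg and Pcyt1b were added after their values were seen. Genes of like pattern were not sought, because 2 libraries give each gene 1 ratio.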

Additional observations from a re-analysis of the deposited data

How the results depend on the processing

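With 1 library per group, all values describe these libraries, and no paired analysis was possible because each group held 1 library. Each of the 4 other scalings moved all log2 ratios by the same amount, from -0.041 (total counts) to 0.014 (upper quartile). Of 40 ratios of the 10 genes, 39 stayed within their counting interval, which depended only on the width of that interval. Dgat2, which had the most reads and so a narrow interval, left it with total counts, at -0.82. Total counts left 0 of the 10 called higher. A limit of 2-fold gave 0 higher and 1 lower (222 and 468 of all genes), and any size beyond counting error gave 5 higher and 4 lower (2704 and 2818 of all genes). The 5 lists held 11, 13, 15, 18 and 6 measured genes. Together they gave 1 higher and 1 lower at 2-fold, beside 1.66% and 3.50% of all genes. At 1.5-fold they gave 3 and 6, beside 4.16% and 7.90%. Counts this small do not set the lists apart from all genes. Shares depended on the length used. Step sums also weight each gene by its length, and they were computed with merged exons only. With the longest transcript, Gpat4 held 49.3% (vehicle) and 68.6% (entacapone), Agpat2 80.0% and 56.6%, and Dgat2 89.8% and 83.5%. Without length correction Gpat4 held 54.3% and 71.7%, and Agpat2 57.9% and 30.8%. With the other isoenzymes Agpat2 held 75.8% and 50.9%. In all 3 settings the share of Gpat4 was higher and that of Agpat2 lower in the entacapone library; that of Dgat2 was lower in both length settings, and no other isoenzyme was added to its step. The 4 scalings moved the median of the 10 genes to between 0.09 and 0.14. Between-mouse variation could not be measured.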

Other observations

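Phosphatidic acid and diacylglycerol also feed phospholipid synthesis, and genes of that branch were compared in the same way. Of 18 measured, 1 was called higher and 0 lower, against 4.16% and 7.90% of all genes, with a median log2 ratio of 0.02; at any size 5 were higher and 2 lower beyond counting error, against 20.2% and 21.1%. These counts do not set the branch apart from all genes. Pcyt1b, an enzyme of phosphatidylcholine synthesis chosen after its value was seen, was below the filter of 1 CPM with 17 vehicle and 3 entacapone reads. The called gene was Chka, choline kinase alpha, at 9.63 against 17.8 CPM (log2 0.89, 0.57 to 1.21). Chpt1, which turns diacylglycerol into phosphatidylcholine, was the most abundant per kilobase at 108 against 106 RPKM, within counting error (log2 -0.03, -0.06 to 0.01). Among diacylglycerol kinases, which return diacylglycerol to phosphatidic acid, 0 of 6 measured were called higher and 0 lower. Of all genes, 4.16% and 7.90% were. The median log2 ratio of the kinases was 0.01. At any size 0 were higher and 1 lower beyond counting error, against 20.2% and 21.1% of all genes. Counts this small do not set the kinases apart from all genes. Dgkd was the most abundant of these kinases, at 29.4 against 28.1 RPKM.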
